A study of Mus musculus with 3 samples.

Results

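Rab genes encode small GTPases of the Ras superfamily that mark the membranes of the secretory and endocytic routes. The members were taken as every gene whose listed symbol is Rab followed by a number and at most 1 letter from a to d, and 59 of the 55573 listed genes met this rule. All 59 are annotated as protein coding and each symbol is listed once. Rab-like genes (Rabl), antisense transcripts and pseudogenes fall outside the rule.

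The mRNA levels were measured by UMI-RNAseq in NIH3T3 cells, an established and immortal line of mouse embryo fibroblasts grown in serum without any treatment. There are 3 libraries of this 1 condition, named library 1, library 2 and library 3, so no group could be set against a control. Separate cultures are not mentioned in the labels, and each SD given here (n = 3 throughout) may therefore reflect technical variation alone. The extraction text in the labels speaks of retina, whereas the cell line field and the methods give NIH3T3.

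The labelled cell type was checked with marker genes. All 8 fibroblast markers, such as Fn1 and Col1a2, reached 1 FPKM in every library, with a summed level of 9175 to 9294 FPKM per library. Of 8 retina and neuron markers 0 did, with a summed level of 0.943 to 1.999 FPKM and none at 0 in all libraries, and of 5 epithelium, 5 pigment cell, 5 blood cell and 4 secretory cell markers 0 did. FPKM gives the counted fragments of a gene for each kilobase of its length and each 1000000 fragments of the library. The totals were inferred from the FPKM values and gene lengths and were 13959723 to 14423209 fragments, and all fragment counts here rest on them. In the order of the libraries, which is kept for all values below, the Rab genes held 43332, 41601 and 42269 fragments, or 3004, 2980 and 2954 of every 1000000.

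A Rab protein cycles between a GTP-bound form on a membrane, which recruits effectors such as tethers and motor adaptors, and a GDP-bound form that is held in the cytosol by a GDP dissociation inhibitor. Exchange factors load GTP, GTPase-activating proteins of the TBC family speed its hydrolysis, and a lipid anchor added with the help of an escort protein holds the Rab on its membrane. Some members work in nearly every cell type, and others serve the granules, synaptic vesicles or pigment organelles of specialized cells.

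Paralogs of the family are alike in protein but can be told apart in their mRNA, and the stretches around the P-loop, the loop that binds the phosphates of the nucleotide, are shown for the sets that carry the comparisons below. Each stretch has 60 coding bases of a GENCODE M21 transcript, 5′ to 3′, with the 24 bases of the P-loop in capitals.
Rab1a: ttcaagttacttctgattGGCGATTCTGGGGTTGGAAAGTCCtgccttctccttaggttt
Rab1b: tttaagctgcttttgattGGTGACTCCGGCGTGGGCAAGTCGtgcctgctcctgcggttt
Rab5a: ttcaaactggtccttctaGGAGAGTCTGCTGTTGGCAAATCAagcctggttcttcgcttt
Rab5b: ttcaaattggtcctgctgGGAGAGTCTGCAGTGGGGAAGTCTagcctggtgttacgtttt
Rab5c: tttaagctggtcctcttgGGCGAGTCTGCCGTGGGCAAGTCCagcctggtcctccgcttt
Rab7: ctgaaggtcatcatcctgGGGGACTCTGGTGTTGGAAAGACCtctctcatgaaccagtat
Rab7b: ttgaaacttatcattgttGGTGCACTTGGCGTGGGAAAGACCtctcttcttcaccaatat

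In these stretches, Rab1a and Rab1b differed at 14 of 60 bases, Rab5a and Rab5b at 12, Rab5a and Rab5c at 12, Rab5b and Rab5c at 13, and Rab7 and Rab7b at 19. The P-loop itself differed at 7 of its 24 bases between Rab1a and Rab1b and at 7 between Rab7 and Rab7b. The protein motif used to find the P-loop matched in 57 of the 59 members. Rab40b and Rab40c did not match it, which does not show that they lack a P-loop. Over the whole coding sequence, the paralog pairs shared between 62.1% (Rab11a and Rab25) and 78.4% (Rab6a and Rab6b) of aligned bases. The longest run of identical coding bases in any pair was 38, between Rab1a and Rab1b, which is shorter than a 75-base stretch of a read.

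Of the 59 members, 40 (67.8%) had an FPKM of at least 1 in every library. The same limit was passed by 22.2% of all listed genes and by 48.5% of the 21980 protein-coding genes. A level of 10 FPKM or more in every library was found for 29 members, and 11 lay between 1 and 10. Below 1 FPKM, 5 members had more than 5 fragments over the 3 libraries, 7 had 1 to 5 fragments, and 7 were listed at 0 in every library. The last were Rab9b, Rab15, Rab19, Rab26, Rab38, Rab39 and Rab44, for which 3 fragments over all libraries would correspond to 0.0177 to 0.0672 FPKM.

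**Figure D1:**
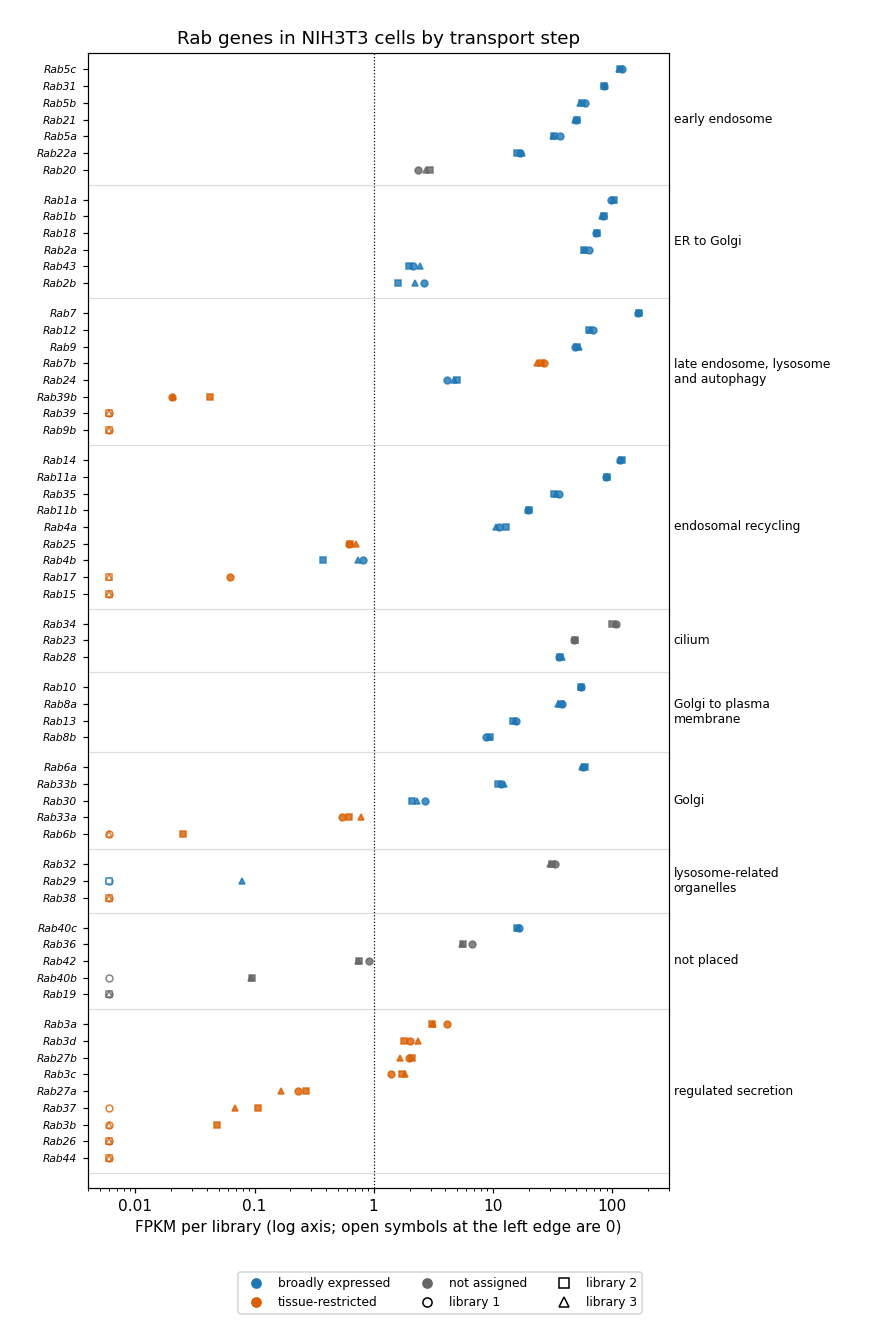
FPKM of the 59 Rab genes in each of 3 NIH3T3 libraries (log axis), ordered by transport step, with broadly expressed members in blue, tissue-restricted members in orange and members on neither list in grey. The dotted line is at 1 FPKM, the symbols show the library, and open symbols at the left edge are values of 0; all members of the early endosome, ER to Golgi, cilium and Golgi to plasma membrane steps lie right of the line, and the regulated secretion members lie below 5 FPKM.

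Members listed as broadly expressed accounted for most of the Rab mRNA. The breadth lists came from general knowledge but were chosen with earlier results of these data known. Contrasts between them, with the test below, therefore only describe these lists. Of 32 members listed as broadly expressed, 30 (93.8%) reached 1 FPKM in every library, their median level was 36.9 FPKM, and they held 86.6% ± 0.246 (SD) of the summed Rab FPKM. Of 19 members listed as tissue-restricted, 5 (26.3%) did, their median level was 0.0277 FPKM, and they held 2.09% ± 0.0831 of the sum. Their count was 2 at a limit of 2 FPKM and 2 with the longest isoform as the length. The other 8 members were on neither list, and 5 of them reached 1 FPKM (Rab34, Rab23, Rab32, Rab36 and Rab20), with 11.3% ± 0.223 of the sum.

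The median of the broadly expressed list was 37.2, 36.9 and 36.6 FPKM. The median of the tissue-restricted list was 0.0204, 0.0486 and 0.0206 FPKM. On the log2(FPKM + 0.1) scale, the medians differed by 8.27, 7.96 and 8.25, with a mean of 8.16 ± 0.18. The tissue-restricted median lay below the pseudocount of 0.1, which therefore set the size of this value, and the mean was 5.20 with a pseudocount of 1 and 9.93 with 0.01. By an exact permutation test (two-sided, flipping the sign of each library) p was 0.25, the smallest p that 3 libraries allow. With every member below 3 fragments in a library set to the value of 3 fragments, the difference was 6.98 ± 0.03 on the log2 scale.

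The summed level per transport step was led by the endosomal system and the early secretory route, by an assignment of each member to 1 step only. Rab14, Rab31 and Rab22a were counted as endosomal, although they also act at the trans-Golgi network. Rab18, known from lipid droplets and the ER, and Rab43, a Golgi Rab, were counted in the ER to Golgi step. They had 74.5 and 2.19 FPKM, and the share of that step without them was not computed. Early endosome Rabs held 21.1% ± 0.276 of the summed Rab FPKM, with 7 of 7 members at 1 FPKM or more. ER to Golgi Rabs held 18.9% ± 0.107 with 6 of 6, and late endosome, lysosome and autophagy Rabs 18.2% ± 0.112 with 5 of 8. Endosomal recycling Rabs held 16.1% ± 0.189 with 5 of 9. Each of these 4 steps had a member above 100 FPKM in its mean, as did the cilium step with Rab34 at 105 FPKM.

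The 3 Rabs placed at the cilium held 11.1% ± 0.277 of the sum with 3 of 3 members, Golgi to plasma membrane Rabs 6.73% ± 0.0463 with 4 of 4, and Golgi Rabs 4.19% ± 0.0424 with 3 of 5. Rabs of lysosome-related organelles held 1.83% ± 0.0665 with 1 of 3, and members placed at no step 1.34% ± 0.0499 with 2 of 5. Regulated secretion had the lowest share, 0.544% ± 0.0153, although 9 members belong to it and 4 of them passed 1 FPKM.

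The most abundant members were Rab7, Rab14, Rab5c, Rab34 and Rab1a, which together held 35.4% ± 0.277 of the summed Rab FPKM. Among the 40 members at 1 FPKM or more, 23 of 39 pairs of neighbours in the order kept their order in every library and 16 did not. Rab14 and Rab5c, Rab34 and Rab1a, Rab2a and Rab6a, and Rab28 and Rab8a were among the neighbours that changed places between libraries.

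Rab7, which directs late endosomes to lysosomes, had the highest level of the family. It lies at chr6:87999106-88045270 on the minus strand (GRCm38). It had 165.3, 169.9 and 165.6 FPKM (167 ± 2.57). All 3 values lay above every value of every other member. Of its 75-base words, 10.2% also occur in other annotated transcripts, mostly in the pseudogene Rab7-ps1, which had 9.53 ± 0.888 FPKM.

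Rab7b, which acts between endosomes and the trans-Golgi network, was listed as restricted to myeloid cells. It lies at chr1:131688695-131715439 on the plus strand. It had 26.8, 25.5 and 23.7 FPKM (25.3 ± 1.59) on 600, 552 and 525 fragments, the highest level of any tissue-restricted member and rank 23 in the whole family. None of its 75-base words occur in another gene's transcripts, and its exons overlap no other gene. Of the 5 blood cell markers, Cd3e and Itgam were at 0 in all libraries and the summed level was 0.0241 to 0.116 FPKM. Rab7 exceeded it 6.61-fold ± 0.42, at 6.16, 6.66 and 6.99 in the 3 libraries.

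In the same step, Rab9, which returns cargo from late endosomes to the Golgi, had 49.2, 51.1 and 53.3 FPKM (51.2 ± 2.06). Its brain paralog Rab9b was listed at 0 in every library, so Rab9 was at least 2898-fold higher when the floor of 3 fragments over all libraries is used, and the exact 95% lower limit of the ratio was 2355. Rab12, which acts in the degradation of recycling receptors, had 66.3 ± 2.46 FPKM. Rab24, a Rab of autophagy, had 4.63 ± 0.445 FPKM, and 62.4% of its exon bases overlap Prelid1 on the opposite strand, a gene with 116 FPKM. Rab39 was at 0 and Rab39b rested on 4 fragments.

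The early endosome carried the 3 Rab5 paralogs, which drive fusion of endocytic vesicles. Rab5c (chr11:100715009-100738215) had 120.3, 117.5 and 115.3 FPKM (118 ± 2.50). Rab5b (chr10:128677175-128696264) had 59.7, 55.5 and 54.2 FPKM (56.5 ± 2.88), and Rab5a (chr17:53479234-53507680) 36.3, 32.3 and 32.1 FPKM (33.6 ± 2.36). The ranges of the 3 paralogs did not overlap on the FPKM scale, and Rab5c had the highest FPKM in every library. Fragments not divided by length gave a log2 ratio of 0.04 between Rab5c and Rab5b in place of 1.06, and in library 1 Rab5b had more fragments (2072) than Rab5c (2055). Rab5c made up 56.7% ± 0.916 of the summed Rab5 level, Rab5b 27.2% ± 0.380 and Rab5a 16.1% ± 0.552.

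Rab31 and Rab22a, related Rabs of the early endosome and the trans-Golgi network, both passed 1 FPKM. Rab31 had 85.9, 86.4 and 87.2 FPKM and Rab22a 16.9, 16.01 and 17.4, a ratio of 5.16 ± 0.208. Rab21, which carries integrins, had 50.0 ± 0.948 FPKM, and Rab20 had 2.70 ± 0.327 FPKM, with 25.6% of its exon bases overlapping a non-coding gene on the opposite strand.

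In the ER to Golgi step, Rab1a and Rab1b, which tether vesicles at the Golgi entry, had FPKM values that lay close together. Rab1a (chr11:20201432-20226856) had 98.9, 104.5 and 102.5 FPKM (102 ± 2.84) and Rab1b (chr19:5099205-5107072) 84.3, 85.6 and 82.1 (84.0 ± 1.76). The ratio was 1.21 ± 0.0378 and lay above 1 in every library. Rab2a and Rab2b, which act at the intermediate compartment and the Golgi, lay far apart. Rab2a had 64.3, 58.3 and 58.8 FPKM and Rab2b 2.64, 1.59 and 2.22, a ratio of 29.1 ± 6.55. Of the exon bases of Rab2b, 64.0% overlap other genes on the opposite strand, among them Tox4 with 34.1 FPKM.

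Rab18, known from lipid droplets and the ER, had 74.5 ± 0.821 FPKM, and Rab43, a Golgi Rab, 2.19 ± 0.236 FPKM. Of the exon bases of Rab43, 75.4% overlap Gm45140, a gene on the same strand with 0.0242 FPKM.

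Endosomal recycling was led by Rab14, which links the trans-Golgi network and recycling endosomes. It had 117.9, 121.9 and 117.3 FPKM (119 ± 2.47) and lies at chr2:35180205-35201120 on the minus strand. Rab11a, the main Rab of the recycling endosome, had 89.5, 91.2 and 91.5 FPKM, and Rab11b had 19.7, 20.3 and 19.8. Rab11a was 4.55-fold ± 0.0602 higher per length, a log2 ratio of 2.18 that was 0.38 when fragments were not divided by length. Of Rab11b, 11.9% of the 75-base words also occur elsewhere, mostly in the pseudogene Rab11b-ps2 with 10.7 ± 0.473 FPKM. Their epithelial relative Rab25 had 0.617, 0.638 and 0.711 FPKM on 22 fragments in all, and Rab11a exceeded it 139-fold ± 8.90.

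Rab4a, a Rab of fast recycling, had 11.3, 13.0 and 10.7 FPKM. Its paralog Rab4b was 1 of the 2 broadly expressed members that failed the limit, with 0.819, 0.376 and 0.734 FPKM on 9, 4 and 8 fragments. The ratio varied from 13.8 to 34.6 between libraries, with library 2 the highest. Of the exon bases of Rab4b, 65.0% overlap other genes on the same strand, among them Gm21983, which was listed at 0. Rab35 had 34.0 ± 1.54 FPKM, Rab17 rested on 1 fragment and Rab15 was at 0.

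The cilium list held Rab34, Rab23 and Rab28. Rab34 (chr11:78188430-78192193), which acts in the early formation of the cilium, had 107.3, 100.6 and 107.2 FPKM (105 ± 3.80). Rab23, a negative regulator of Hedgehog signalling, had 48.7 ± 0.239 FPKM, and Rab28 had 37.0 ± 1.02 FPKM.

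From the Golgi to the plasma membrane, Rab10, which carries exocytic cargo, was the highest with 54.5, 55.3 and 54.5 FPKM. Rab8a had 38.03, 37.1 and 35.1 FPKM and Rab8b 8.79, 9.41 and 9.36, a ratio of 4.01 ± 0.293. The mean log2 ratio was 1.99 as deposited and 0.66 with the longest isoform of each gene. Rab13, a Rab of tight junctions, had 15.2 ± 0.433 FPKM.

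At the Golgi, Rab6a, which acts in transport back to the ER, had 57.1, 58.9 and 56.5 FPKM. Its brain paralog Rab6b rested on 1 fragment, in library 2, and the pooled ratio was 7020 with an exact interval of 1259 to 277304. Rab33b, which binds the autophagy protein Atg16l1, had 11.6, 11.1 and 12.5 FPKM, and Rab33a, a Rab of brain and lymphocytes, had 0.539, 0.619 and 0.785 FPKM, a ratio of 18.5 ± 2.83. Rab30 had 2.38 ± 0.305 FPKM.

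Among the Rabs of lysosome-related organelles, such as melanosomes, only Rab32 passed 1 FPKM. It had 33.0, 31.4 and 30.2 FPKM (31.6 ± 1.41). Its pigment cell paralog Rab38 was listed at 0 in every library, so Rab32 was at least 484-fold higher with a floor of 3 fragments over all libraries, and the exact 95% lower limit of the ratio was 393. Of 5 pigment cell markers, 4 were at 0 in all libraries, and Pmel had 0.684 ± 0.198 FPKM. Rab29 was the other broadly expressed member below the limit, with a single fragment in library 3 and a pooled exact upper limit of 0.146 FPKM.

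Regulated secretion was represented by Rab3 and Rab27 members at low levels. Rab3a, which acts at synaptic vesicles and granules, had 4.09, 3.11 and 3.15 FPKM on 68, 50 and 52 fragments. Rab3d, known from exocrine granules, had 2.03, 1.79 and 2.34 FPKM, and Rab3c had 1.40, 1.72 and 1.84. Rab3a lay above both of the others in every library, while the values of Rab3c and Rab3d overlapped. The order of both against Rab3c turned when fragments were not divided by length. Rab3b rested on 1 fragment, in library 2.

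Rab3a made up 48.0% ± 5.83 of the summed Rab3 level, Rab3d 28.6% ± 2.90 and Rab3c 23.2% ± 3.96. Rab27b, which docks secretory granules, had 1.98, 2.10 and 1.66 FPKM, and Rab27a, which also carries melanosomes, had 0.231, 0.273 and 0.166. Their ratio was 8.75 ± 1.14. Rab37 rested on 5 fragments, and Rab26 and Rab44 were at 0. The 8 retina and neuron markers and the 4 secretory cell markers had mean levels of at most 0.363 and 0.0218 FPKM, below those of Rab3a, Rab3c, Rab3d and Rab27b.

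Of the members placed at no step, Rab40c, a Rab with a SOCS box that recruits a ubiquitin ligase, was the highest with 16.7, 16.1 and 16.3 FPKM. Rab40b rested on 2 fragments, and the pooled ratio was 264 with an exact interval of 72.9 to 2181. Rab36 had 5.94 ± 0.638 FPKM, Rab42 0.800 ± 0.0969 on 26 fragments, and Rab19 was at 0.

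Over all sets there were 24 paralog pairs, of which 23 had a member with a mean of at least 1 FPKM and were tested, while Rab39b and Rab39 did not. Pairs were written with the higher mean first. In all 23, the log2 ratio of FPKM had the same sign in every library, and the same exact permutation test gave p = 0.25 and an adjusted p of 0.25 for each, the smallest value possible. The fold moved by more than 1.5 times in 15 of the 23 pairs when fragments were not divided by length and in 9 with the longest isoform. The smallest mean log2 ratios as deposited were those of Rab1a to Rab1b, at 0.28 ± 0.05, and of Rab3d to Rab3c, at 0.30 ± 0.23.

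**Figure D2:**
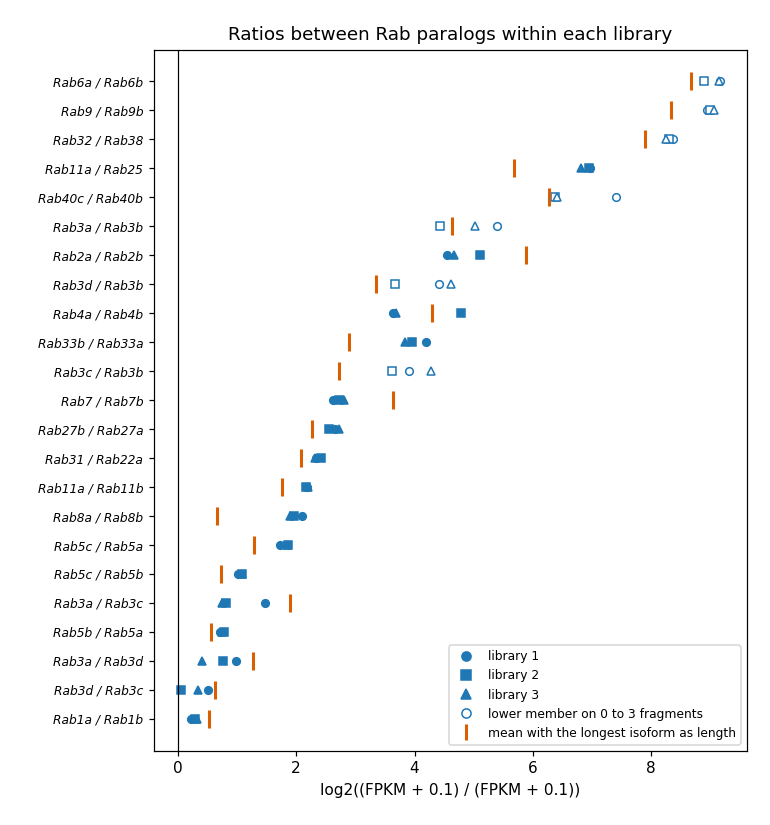
Log2 ratio of FPKM + 0.1 between the members of each Rab paralog pair in each of 3 libraries, with open symbols where the lower member had 0 to 3 fragments and orange bars at the mean with the longest annotated isoform as the length. All points lie right of 0; the Rab1 pair has a mean of 0.28, and the 3 pairs farthest right have a lower member on 0 or 1 fragment, so the pseudocount sets their position and order.

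FPKM depends on the length by which fragments are divided, and the deposited values used the mean isoform length of each gene. For the 40 members at 1 FPKM or more, the longest isoform was a median of 1.72 times and at most 3.63 times (Rab30) that length, and 4 members had 1 isoform. With the longest isoform, Rab7 stayed first at 110 FPKM and Rab5c became second at 70.9. Rab14 moved from rank 2 to rank 11 at 39.5 FPKM, Rab11a from 6 to 15 at 29.4, and Rab18 from 9 to 20 at 21.3. Rab7b went to 8.73 FPKM, and Rab10 and Rab2a, which have 1 isoform, kept 54.8 and 60.4.

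**Figure D3:**
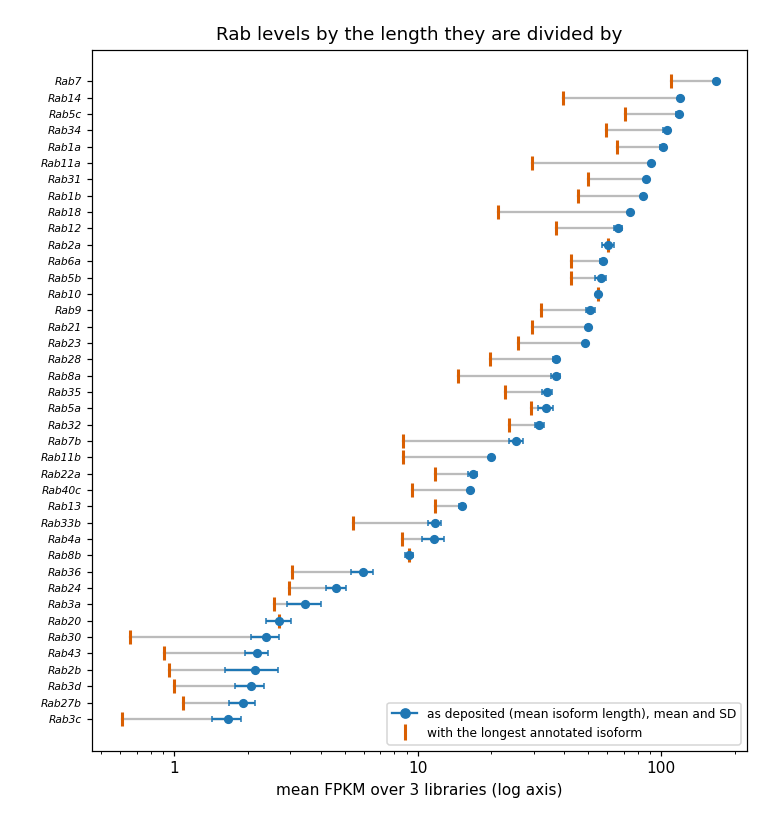
Mean FPKM over 3 libraries (log axis) of the 40 Rab genes at 1 FPKM or more, as deposited with the SD (blue points and bars) and with the longest annotated isoform as the length (orange bars). The gap is wide for Rab14, Rab11a and Rab18 and absent for Rab2a, Rab10, Rab8b and Rab20, which have 1 isoform.

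The spread between libraries was set against counting error. The median chi-square of the members was 1.55 times the value that counting alone gives, beside 1.15 times over all genes. Of 41 members with at least 30 fragments, 3 (7.32%) had a chi-square of fragments over libraries above its 95% limit, set against 9.49% of 13643 genes. They were Rab5a, Rab2a and Rab5b, each highest in library 1. After Benjamini-Hochberg adjustment over all genes, 0 of the 41 members and 276 of all genes passed at 5%. The 18 members with fewer fragments were not tested.

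A selection of the regulators that drive the Rab cycle was listed alongside, chosen with earlier results of these data known. Of 80 regulators and effectors, 64 reached 1 FPKM in every library, beside 48.5% of protein-coding genes and 22.2% of all listed genes. All listed members of the shared machinery reached this limit. Gdi2, a GDP dissociation inhibitor, had 189 ± 1.38 FPKM. The geranylgeranyl transferase subunits Rabggtb and Rabggta had 112 ± 1.97 and 20.2 ± 0.727 FPKM, and the escort proteins Chm and Chml had 21.4 ± 1.13 and 9.45 ± 0.910.

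All 16 listed TBC-type GTPase-activating proteins passed, from Tbc1d7 at 8.25 ± 0.805 to Tbc1d15, an activator of Rab7 hydrolysis, at 89.3 ± 2.84 FPKM. Genes of this class outside the list were not counted. Of 26 exchange factors 23 passed, with Rin1, an exchange factor for Rab5, the highest at 175.4, 187.9 and 179.0 FPKM and Rin3 the lowest on 1 fragment. Effectors were the role with most genes below the limit, as 19 of 32 passed, beside the 48.5% of protein-coding genes. Rabac1, a Rab acceptor that was listed with the effectors, was the highest at 134 ± 4.26 FPKM. The Rab5 tether Eea1 came next with 90.5 ± 0.951. Rims1, Sytl4, Sytl5 and Bicd1 were listed at 0 in every library, but their relatives on the list were not. Bicd2 passed the limit with 34.4 ± 0.825 FPKM. Sytl1 had 1.23, 0.702 and 1.37 FPKM and Sytl2 had 0.952 ± 0.153, and neither reached the limit in every library. Sytl3 rested on 3 fragments and Rims2 on 2. Mlph, which links Rab27a to a melanosome motor, had 0.0704 ± 0.0351 FPKM.

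Promoters were compared by their CG dinucleotides, since promoters rich in CG are common at broadly expressed genes. RefSeq promoter sequence (GRCm38.p6) was matched for 48 of the 59 members. In the 250 bases before the gene start, the observed CG count was divided by the count expected from the C and G content. CG reads the same on both strands. The 4 promoters below show a high and a low ratio at a high mRNA level (Rab14 and Rab9) and at a low one (Rab39b and Rab33a), each in the direction of transcription with CG in capitals.
Rab14, chr2:35201121-35201370, minus strand: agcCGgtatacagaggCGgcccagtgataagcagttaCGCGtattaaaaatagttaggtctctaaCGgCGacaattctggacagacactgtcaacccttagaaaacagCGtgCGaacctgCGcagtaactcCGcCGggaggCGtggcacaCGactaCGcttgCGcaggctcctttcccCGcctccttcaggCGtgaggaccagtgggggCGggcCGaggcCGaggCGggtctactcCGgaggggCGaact
Rab9, chrX:166479868-166480117, minus strand: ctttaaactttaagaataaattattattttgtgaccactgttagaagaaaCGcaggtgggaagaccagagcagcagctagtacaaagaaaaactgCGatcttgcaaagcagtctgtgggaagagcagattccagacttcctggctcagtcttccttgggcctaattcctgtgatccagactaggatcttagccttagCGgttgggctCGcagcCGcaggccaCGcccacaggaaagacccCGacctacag
Rab39b, chrX:75578232-75578481, minus strand: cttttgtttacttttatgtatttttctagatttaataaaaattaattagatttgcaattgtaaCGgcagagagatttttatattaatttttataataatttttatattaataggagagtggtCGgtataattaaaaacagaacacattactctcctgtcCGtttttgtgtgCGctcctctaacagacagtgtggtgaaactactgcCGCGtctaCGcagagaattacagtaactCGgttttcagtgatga
Rab33a, chrX:48519035-48519284, plus strand: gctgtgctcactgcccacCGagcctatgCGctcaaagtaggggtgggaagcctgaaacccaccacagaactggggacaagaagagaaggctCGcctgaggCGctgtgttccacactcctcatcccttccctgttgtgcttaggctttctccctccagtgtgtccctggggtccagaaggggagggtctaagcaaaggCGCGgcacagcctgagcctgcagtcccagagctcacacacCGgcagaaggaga

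The Rab14 promoter had 23 CG and a ratio of 1.03, and that of Rab9 had 7 CG and a ratio of 0.470, and both mRNAs were above 49 FPKM. Rab39b, on 4 fragments, had 8 CG and a ratio of 1.30 in a sequence poor in C and G, and Rab33a, at 0.647 ± 0.125 FPKM, had 7 CG and a ratio of 0.307. A ratio of at least 0.6 was found for 28 of 33 promoters (84.8%) of members at 1 FPKM or more and for 7 of 15 (46.7%) of the others. By breadth, it was found for 25 of 28 (89.3%) broadly expressed and 7 of 13 (53.8%) tissue-restricted members, beside 9855 of 27025 genes (36.5%) in the RefSeq set. That set was not limited to protein-coding genes or to genes at 1 FPKM or more, whose shares were not computed. Where a gene has several starts, the one with the highest ratio was taken. These shares are a description without a test.

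**Figure D4:**
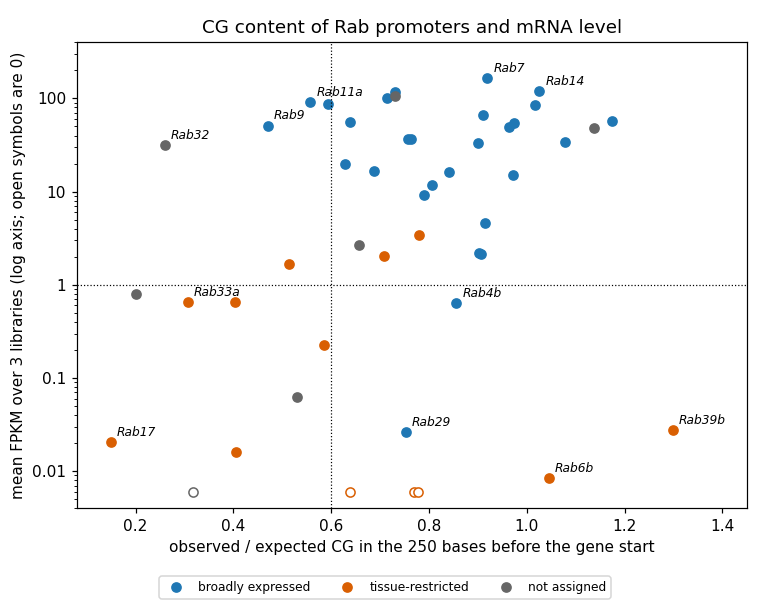
Mean FPKM over 3 libraries (log axis, open symbols are 0) against the ratio of observed to expected CG in the 250 bases before the gene start, for the 48 Rab genes with a RefSeq promoter, coloured by breadth. Dotted lines are at a ratio of 0.6 and at 1 FPKM; most broadly expressed members sit at the upper right, Rab32 and Rab9 at the upper left, and Rab6b and Rab39b at the lower right.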

How the data were processed

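UMI-RNAseq was read from 3 libraries of untreated NIH3T3 cells. According to the methods, the authors kept reads with a UMI, mapped them with Hisat2, removed copies with the same position and UMI, counted per gene with HTSeq and deposited FPKM. The submitters' processing notes name UMI-tools 1.0.0, HISAT2 2.0.4, HTSeq 0.6.1 and DESeq 1.10.1. The genome build and the use of strand in counting are not given in the sources used here, so a gene and an overlapping gene may not be told apart. Reads that fit more than one gene may be dropped or shared in a way that lowers overlapping members.

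Both deposited tables hold the same FPKM values, and 0 columns were left unused. A count model was not used on FPKM. Lengths and positions came from GENCODE M21 (GRCm38), which holds 55480 of the 55573 listed IDs. Each FPKM equals fragments divided by the mean isoform length and the library total, which gave back whole fragments within 0.01 for every member. For all genes with a fragment, 25969 of 26193 (99.1%) came out whole with these inferred totals. Intervals are exact 95% intervals, and they and the floor of 3 fragments cover counting error only.

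A pseudocount of 0.1 was used for ratios. The limit of 1 FPKM was applied in every library. The spread was compared with counting error by chi-square, which was tested on simulated data. Ratios were tested with an exact sign-flip permutation test with Benjamini-Hochberg adjustment over the pairs. Python 3.11.15, numpy 2.4.6, pandas 2.3.3, scipy 1.17.1 and matplotlib 3.10.9 were used. The members and all lists (steps, breadth, regulators, markers) come from general knowledge and were chosen with earlier results of these data known. Named in full were the highest member of each step, the members of each paralog set with a mean of 1 FPKM or more in it, and tissue-restricted members at that level, and for regulators the highest and lowest of each role, of which 1 gene is not reported here. Eea1, Mlph, Rims1, Rims2, Sytl1 to Sytl4, Bicd1 and Bicd2, the overlapping genes and the 4 promoters were chosen after their values were seen. Alternatives were other limits, pseudocounts, lengths, scalings and leaving out each library.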

Additional observations from a re-analysis of the deposited data

How the results depend on the processing

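Of 505 values computed under another setting, 405 met the criterion for their kind, which was a count within 1.5 times, a level or share within 1 SD, or the same sign for a log2 ratio. All 117 values of counts, shares and ratios and all 120 member levels obtained with 1 library left out did so. With 3 libraries, leaving 1 out cannot move a mean by 1 SD, and each ratio had the same sign in every library. Only the counts could therefore have failed. The number of tissue-restricted members at the limit was 5, but 2 at an FPKM of at least 2 and 2 with the longest isoform. The share of the 5 highest members, ranked anew under each setting, was 36.0% with the longest isoform and 33.2% with fragments not divided by length. These were not the same 5 genes as in the deposited values. With the longest isoform, Rab2a took the place of Rab14. Without division by length, Rab10 and Rab31 took the places of Rab5c and Rab34. With the longest isoform, the step shares were 19.1% for ER to Golgi, 4.83% for Golgi, 8.86% for Golgi to plasma membrane, 10.3% for cilium, 23.2% for early endosome, 10.8% for recycling, 18.7% for late endosome and 2.32% for lysosome-related organelles. With fragments not divided by length, they were 18.4%, 5.45%, 10.7%, 9.08%, 25.8%, 13.3%, 13.6% and 1.70% in that order, 1.28% for members placed at no step and 0.708% for regulated secretion. Without division by length, the log2 ratio of Rab3a to Rab3c turned to -0.37 and that of Rab3d to Rab3c to -0.41. All 40 member levels moved under TPM, which rescales each library to 1e+06, and 36 of 40 with the longest isoform, but 0 of 40 under median-of-ratios scaling.

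The sign of a ratio says nothing of its size, and the fold moved by more than 1.5 times in 11 of 23 paralog pairs with a pseudocount of 1 and in 7 with 0.01. With 3 libraries, the sign-flip test cannot give a p below 0.25. Members with 5 or fewer fragments have no usable fold beyond their interval, and levels of Rab2b, Rab4b, Rab24 and Rab43 rest on genes that overlap others over more than 60% of their exon bases, whose part was not tested. Libraries could not be paired between conditions because all share a single condition, and ratios between genes or lists were taken within each library.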

Other observations

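Several genes with related names lie outside the rule. The Rab-like genes Rabl6, Rabl2 and Rabl3 had 69.2 ± 2.08, 11.2 ± 0.711 and 5.76 ± 0.786 FPKM. The antisense transcript Rab10os had 9.16 ± 0.473 FPKM beside 54.8 for Rab10, and Rab26os had 1.43, 1.66 and 1.80 FPKM while Rab26 was listed at 0 in every library. Rab5if, a gene that is not a Rab, had 30.3 FPKM in library 1 but 14.8 and 14.1 in libraries 2 and 3. These genes were picked after their values were seen.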
